A study of Mus musculus with 16 samples.

Results

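The 59 genes described here encode NRF2, its inhibitor KEAP1 and some of the enzymes that NRF2 is known to induce. They also encode glutathione, thioredoxin, peroxide, superoxide and metal handling proteins of the antioxidant defence. They were chosen by symbol among the 54347 genes of the count table, as the glutathione transferase, microsomal glutathione transferase, glutathione peroxidase, peroxiredoxin, superoxide dismutase and metallothionein families together with *Nfe2l2*, *Keap1*, *Nqo1*, *Hmox1*, *Gclc*, *Gclm*, *Gsr*, *Txn1*, *Txnrd1*, *Srxn1*, *Cat*, *Fth1* and *Ftl1*. The rule uses gene symbols alone. Of the 59 genes, 41 passed the filter on low counts and were tested, and 18 did not.

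The study raised the long noncoding RNA *Gm15551* in brown adipocytes and asked how this and β-adrenergic stimulation act on the transcriptome. The cells were wt1-SAM, an immortalized mouse brown preadipocyte line that carries the SAM activation system, in which guide RNAs (sgRNAs) bring transcriptional activators to a chosen promoter. All cells were differentiated with rosiglitazone, T3, dexamethasone, insulin, indomethacine and IBMX, given 250 ng of plasmid by reverse transfection on day 4, and harvested on day 7. The plasmid was the empty vector or pSgRNA-MS2-2+7, a mixture with guides against *Gm15551*, and cells were left as controls or stimulated over 24 h through their β-adrenergic receptors with isoproterenol at 1 µM. This gave 4 groups (empty control, empty isoproterenol, sgRNA control and sgRNA isoproterenol), each with the replicate numbers 3, 4, 5 and 6, which makes 16 libraries of polyadenylated RNA. The labels do not say whether replicates were separate cultures, so p-values measure the spread between these libraries only. All groups are 1 cell line, so no animal or second line stands behind the comparisons.

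Libraries held 9053521 to 16546187 counts, of which a ribosomal RNA gene took 11.7% to 51.8%, and in 8 of 8 pairs with the same number and treatment the empty vector library held the larger share. *Gm15551* was at 0.389 to 1.35 CPM (counts scaled to the effective library size) in empty control, 0 to 0.420 in empty isoproterenol, 1.42 to 3.91 in sgRNA control and 1.04 to 2.04 in sgRNA isoproterenol libraries, so that the plasmid groups did not overlap within either treatment. Its log2 fold change for the sgRNA plasmid was 2.37 ± 0.39 (SE, edgeR adjusted p = 0.0989), or 2.41 ± 0.28 with the replicate number as a block (adjusted p = 0.00055). The adipocyte marker *Fabp4* was at 8199 CPM or more in every library. *Ucp1*, the uncoupling protein of brown fat, was at 0 to 0.978 CPM without and 4.36 to 15.5 CPM with isoproterenol. The leukocyte markers *Ptprc* and *Adgre1* did not exceed 0.259 CPM in any library.

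NRF2, encoded by *Nfe2l2*, is a transcription factor that KEAP1 holds in the cytoplasm and hands to the proteasome. When electrophiles or peroxides modify KEAP1, NRF2 accumulates, pairs with small MAF proteins and binds antioxidant response elements in the genes of glutathione synthesis, quinone reduction, heme breakdown and peroxide removal. Brown adipocytes oxidise much fat in their mitochondria, where superoxide forms, and superoxide dismutases, peroxiredoxins, glutathione peroxidases and catalase turn it in steps into water.

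The promoters of *Mt1* and *Mt2* are shown because these neighbouring genes had like isoproterenol effects. Those of *Srxn1* and *Nfe2l2* are examples of the 11 genes with a match to the core of the antioxidant response element. Sequences are from RefSeq promoters on GRCm38.p6, read 5′ to 3′ on the gene's strand, with motif matches in capitals. Of the 59 genes, 51 had a promoter in this table, which covers 250 bases before and 50 after the start. It held none for *Gclc*, *Prdx6*, *Hmox1*, *Gsr*, *Gsta4*, *Gsta5*, *Gstt2* and *Sod3*, so these genes were not searched. Printed are bases -250 to -11 for *Mt1* (chr8:94178839-94179078, plus strand) and *Mt2* (chr8:94172368-94172607, plus strand), and 30 bases around the match for *Nfe2l2* (chr2:75704884-75704913, minus strand) and *Srxn1* (chr2:152105542-152105571, plus strand).
Mt1: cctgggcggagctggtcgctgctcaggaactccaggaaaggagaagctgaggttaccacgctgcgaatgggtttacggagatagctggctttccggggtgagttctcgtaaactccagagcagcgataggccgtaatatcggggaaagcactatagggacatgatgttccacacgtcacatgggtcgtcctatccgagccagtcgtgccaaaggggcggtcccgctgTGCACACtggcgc
Mt2: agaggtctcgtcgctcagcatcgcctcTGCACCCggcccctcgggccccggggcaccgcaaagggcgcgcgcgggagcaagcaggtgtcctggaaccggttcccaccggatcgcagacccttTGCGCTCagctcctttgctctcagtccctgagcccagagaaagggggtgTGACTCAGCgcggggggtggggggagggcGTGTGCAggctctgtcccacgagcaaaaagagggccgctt
Nfe2l2: tcagcccaccTGACTCCGCcatgccccgga
Srxn1: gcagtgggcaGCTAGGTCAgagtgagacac

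Matches were searched on both strands of the 300 bases. TGACNNNGC, the core of the antioxidant response element, was found in promoters of 11 of the 51 genes, namely *Gclm*, *Gsta3*, *Gstm5*, *Gstm7*, *Mgst1*, *Mt2*, *Nfe2l2*, *Prdx1*, *Sod1*, *Srxn1* and *Txnrd1*. By adjusted p with the block, *Mt2*, *Nfe2l2* and *Srxn1* of these were higher with isoproterenol, and *Mgst1* and *Sod1* lower. The others did not pass or were not tested. The match was in 11 of the 66 promoters of the 51 genes (16.7%), against 12.4% of all 32851 promoters of the table. The *Nfe2l2* match began at base -240 and that of *Mt2* at base -79, whereas that of *Srxn1* lay after the start, at base 29. The metal response element, searched as TGCACNC and TGCGCNC, was found in 7 and 12 of the 51 genes and in 8 (12.1%) and 13 (19.7%) of the 66 promoters, against 12.6% and 15.4% of all promoters. *Mt1* and *Mt2* held both forms, but the TGCGCNC match of *Mt1* lay after the start, at base 21, outside the printed bases. TGACGTCA, the cAMP response element, was in none of the 66, against 1.79% of all promoters. The promoter of *Nqo1* held no match to any of these motifs. A match describes these letters only.

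The genes differed widely in level. Per kb of transcript, the iron storage chains *Ftl1* and *Fth1* stood at 2221 ± 501 and 1310 ± 216 CPM per kb (mean ± SD, n = 16 libraries), and *Mt1*, a cysteine-rich protein that binds zinc and copper, at 1405 ± 441. These 3 genes are the highest of the 41 in the plot of level per transcript length, and the ranges of *Mt1* and *Fth1* overlap with each other and with that of *Ftl1*. Apart from the ferritins, the most abundant enzyme was *Gpx4*, the peroxidase that reduces lipid hydroperoxides, at 853 ± 136 CPM per kb. The microsomal transferase *Mgst1* followed at 681 ± 110 and the cytosolic copper and zinc dismutase *Sod1* at 671 ± 149, and these 2 neighbours did not differ beyond their spread. The range of *Gpx4* overlapped with both.

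**Figure D1:**
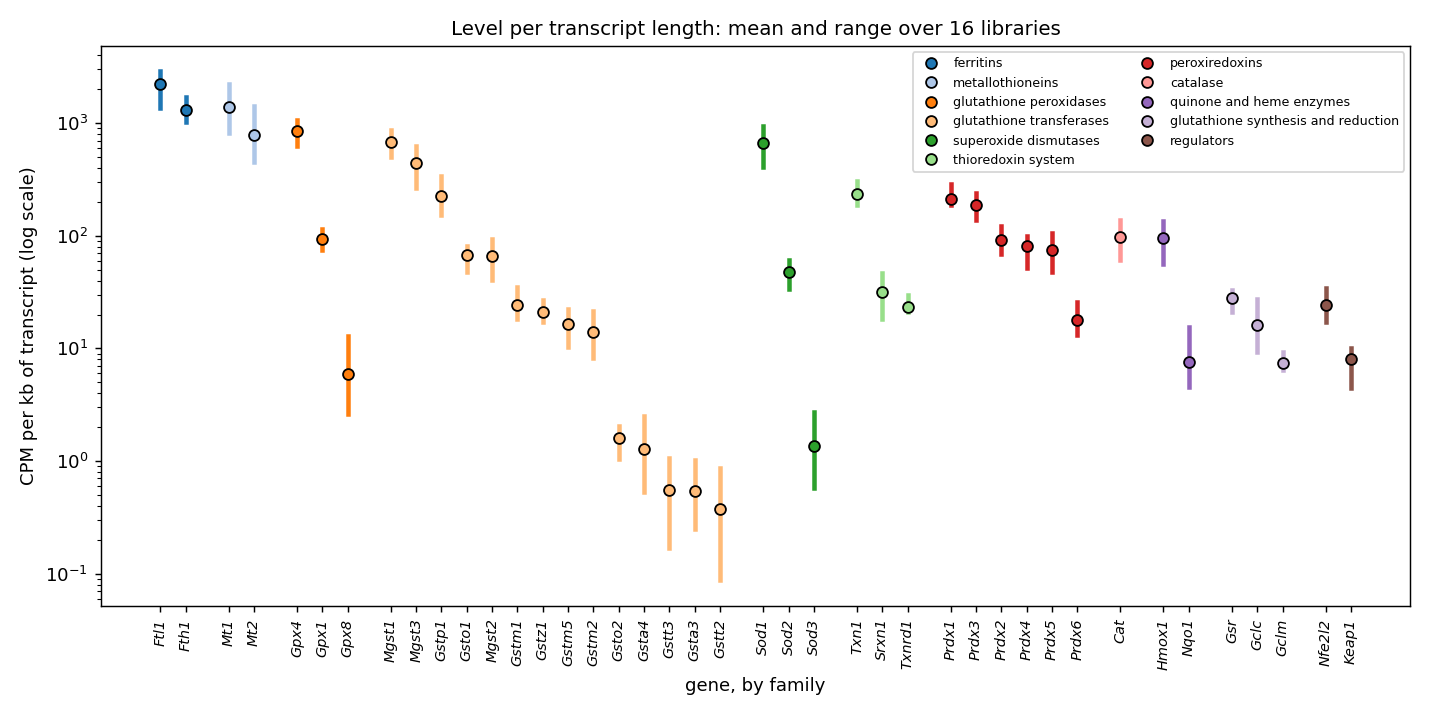
Mean level (circle) and range over 16 libraries (line) of the 41 tested genes, in CPM per kb of transcript on a log scale, ordered by family. Ferritins, metallothioneins and *Gpx4* are the highest, with *Ftl1* at 2221, and *Gstt2* is the lowest at 0.379 CPM per kb.

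Thioredoxin (*Txn1*) stood at 233 ± 34.7 CPM per kb, the transferase *Gstp1* at 227 ± 55.7 and the cytosolic peroxiredoxin *Prdx1* at 214 ± 24.0. *Nfe2l2* itself stood at 24.5 ± 4.32 and *Keap1* at 8.01 ± 1.51 CPM per kb. The subunits of glutamate-cysteine ligase, the enzyme that starts glutathione synthesis, were at 16.1 ± 5.71 (catalytic, *Gclc*) and 7.47 ± 0.779 (modifier, *Gclm*). At the low end were *Gsta4*, *Gstt3*, *Gsta3* and *Gstt2*, with 0.379 to 1.27 CPM per kb.

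The 18 genes below the filter were mostly other transferases and peroxidases. *Gstt1* had 104 counts over all 16 libraries, *Gstm7* and *Gstp3* 73 each, *Gsta1* 70, *Gstm4* 65, *Gstp2* 44, *Gstt4* 29, *Gstm6* 17, *Gpx3* 14, *Gsta2* 6, *Gstk1* 3 and *Gstm3* 2. *Gpx2*, *Gpx6*, *Gpx7* and *Mt3* had 1 count each, and *Gpx5* and *Gsta5* had 0. A count of 0 allows up to 3 counts, or 0.166 to 0.389 CPM in a library. *Gstp2*, *Gstp3* and the *Gstm* and *Gsta* genes are close paralogs, between which salmon divides shared reads, so their values are uncertain.

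Isoproterenol, averaged over both plasmids, raised 4 of the 41 genes in the edgeR quasi-likelihood test without a replicate block, namely *Gclc*, *Srxn1*, *Nqo1* and *Prdx6*, and lowered none (adjusted p under 0.05 and absolute log2 fold change over 0.5). Among all 13150 genes tested, 1.33% were called higher and 1.32% lower. Libraries of the same replicate number deviated together from their group means, and with the number as a block in the model 7 genes were called higher and none lower, against 3.09% and 2.61% of all genes. The 3 genes added were *Mt1*, *Mt2* and *Gpx8*. At an unadjusted p under 0.05 and without the block, 8 genes (19.5%) were higher and 5 (12.2%) lower, against 8.61% and 9.11% of all genes. With the block 15 (36.6%) were higher and 8 (19.5%) lower, against 16.8% and 16.7%.

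The median log2 fold change of the 41 genes was 0.08 against 0.00 for all genes, and 27 were higher and 14 lower. The plot of isoproterenol effects sets both fits side by side. The ribosomal RNA share was higher with isoproterenol in 4 of 4 empty vector pairs and in 2 of 4 sgRNA pairs. With the log odds of that share as a covariate, *Gclc*, *Srxn1*, *Nqo1* and *Prdx6* were called both without and with the block, the latter a fit chosen after seeing the data. The covariate without the block also called *Cat* lower, at -0.51 (edgeR adjusted p = 0.00684).

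**Figure D2:**
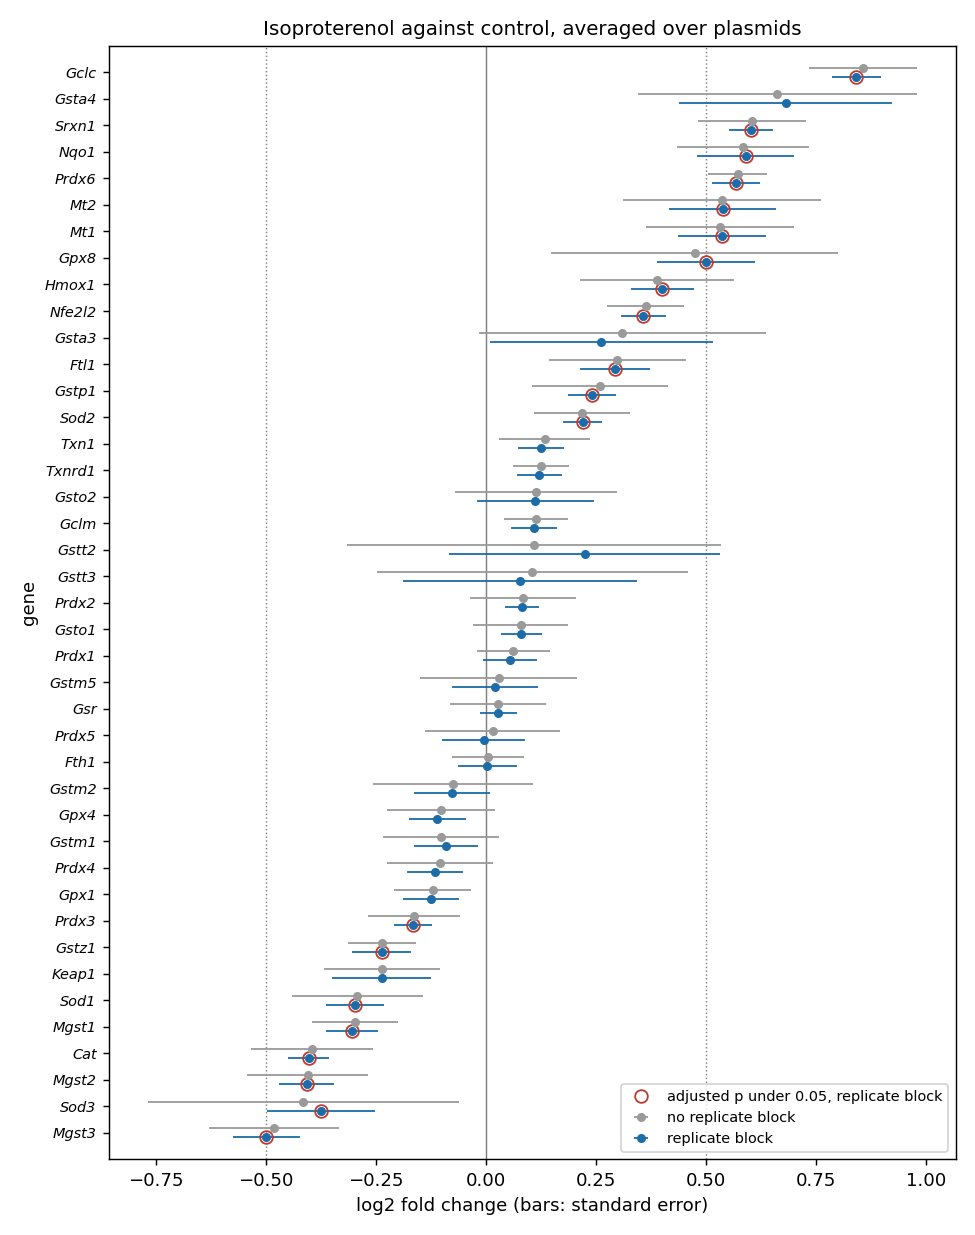
Log2 fold change of the 41 genes under isoproterenol, averaged over plasmids, with its standard error, without (grey) and with (blue) the replicate block. Red circles mark an adjusted p under 0.05 with the block, and dotted lines the bounds at -0.5 and 0.5. Estimates hardly move between the fits, whereas the errors shrink with the block, as for *Gclc* from 0.12 to 0.055.

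The regulators come first. *Nfe2l2* (chr2:75675513-75704641, minus strand) had 56.8, 54.0, 42.2 and 53.0 CPM in empty control libraries (replicates 3, 4, 5 and 6, an order kept below), 85.0, 64.7, 55.6 and 76.0 in empty isoproterenol, 57.6, 55.1, 50.8 and 54.9 in sgRNA control, and 70.5, 63.8, 59.5 and 71.3 in sgRNA isoproterenol libraries. It was higher with isoproterenol in 8 of 8 pairs, and only in replicate 5 of the empty vector did a stimulated library fall within the range of the controls. The log2 fold change of 0.36 ± 0.087 (SE) had an edgeR adjusted p of 0.026, which passes the p threshold but not the bound on the fold change. The adjusted p was 0.0795 with no filter on low counts, and 0.05 or more in 9 of 20 fits that left out libraries, with 0.168 at the highest. With the block it was 0.000139, and under 0.05 in all 20. Without the bound, 5 of 41 genes were higher without the block, against 2.06% of all genes, and none was lower, against 2.43%.

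*Keap1* (chr9:21229730-21239361, minus strand) had 36.2, 34.5, 30.2 and 20.1 CPM in empty control, 16.1, 29.7, 31.2 and 23.2 in empty isoproterenol, 30.9, 31.5, 36.2 and 30.7 in sgRNA control, and 29.8, 26.8, 29.2 and 26.8 in sgRNA isoproterenol libraries. The empty vector groups overlapped and the sgRNA groups did not. Its log2 fold change was -0.24 ± 0.13 with an edgeR adjusted p of 0.381, or 0.153 with the block, and 6 of 8 pairs had the lower value under isoproterenol. An antisense gene shares 10.9% of its exonic bases.

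*Gclc* (chr9:77754535-77794485, plus strand) rose most among the called genes. It had 34.5, 31.6, 38.0 and 48.0 CPM in empty control, 62.1, 57.5, 68.4 and 94.7 in empty isoproterenol, 37.6, 39.5, 40.1 and 45.4 in sgRNA control, and 61.8, 58.1, 76.5 and 90.2 in sgRNA isoproterenol libraries. Each stimulated library was above each control library. The rise was 1.81-fold (log2 0.86 ± 0.12, edgeR adjusted p = 0.000653). The modifier subunit *Gclm* stood at 36.3 to 51.6 CPM with overlapping groups, and its log2 fold change was 0.11 ± 0.073 (edgeR adjusted p = 0.464). Glutathione reductase, *Gsr*, was also not called.

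*Srxn1* (chr2:152105516-152111376, plus strand) encodes sulfiredoxin, which repairs overoxidised peroxiredoxins. It had 78.7, 77.4, 71.7 and 51.7 CPM in empty control, 132, 115, 111 and 79.2 in empty isoproterenol, 71.6, 85.7, 69.4 and 57.7 in sgRNA control, and 120, 118, 102 and 82.7 in sgRNA isoproterenol libraries. Replicate 6 was the lowest library of each group, and it was higher with isoproterenol in 8 of 8 pairs although the pooled values overlapped. The rise was 1.52-fold (log2 0.61 ± 0.12, edgeR adjusted p = 0.00888), and the call was lost when replicate 3, 4 or 5 was left out of the fit without the block. Thioredoxin (*Txn1*) and thioredoxin reductase (*Txnrd1*), the other members of that system, had log2 fold changes of 0.13 ± 0.10 and 0.13 ± 0.064 and were not called. Without empty isoproterenol replicate 3 *Txn1* was at 0.072, and without replicate 5 *Txnrd1* was at 0.061.

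*Nqo1* (chr8:107388225-107403206, minus strand), a quinone reductase that is widely used as a readout of NRF2, had 11.4, 8.46, 7.91 and 11.7 CPM in empty control, 24.2, 16.4, 12.6 and 13.8 in empty isoproterenol, 8.38, 7.44, 7.10 and 11.8 in sgRNA control, and 12.8, 12.1, 9.83 and 11.6 in sgRNA isoproterenol libraries. The empty vector groups did not overlap and the sgRNA groups did. The rise was 1.5-fold (log2 0.58 ± 0.15, edgeR adjusted p = 0.0368), and without the block it lost its call in 13 of 20 fits that each left out a library or a replicate number, with log2 values between 0.47 and 0.75. With the block the adjusted p was 0.00129, and the call was lost in 1 of the 20 fits, that without replicate 3.

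*Prdx6* (chr1:161240112-161251219, minus strand), a peroxiredoxin that reduces phospholipid hydroperoxides with glutathione, had 35.1, 31.9, 35.5 and 35.6 CPM in empty control, 61.1, 45.7, 53.6 and 50.5 in empty isoproterenol, 33.4, 34.3, 31.2 and 36.6 in sgRNA control, and 51.0, 44.5, 49.1 and 51.7 in sgRNA isoproterenol libraries. No stimulated library overlapped with a control. The rise was 1.49-fold (log2 0.57 ± 0.067, edgeR adjusted p = 8.33e-05), and the call was kept in each of the 20 fits that left out libraries, as was that of *Gclc*.

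**Figure D3:**
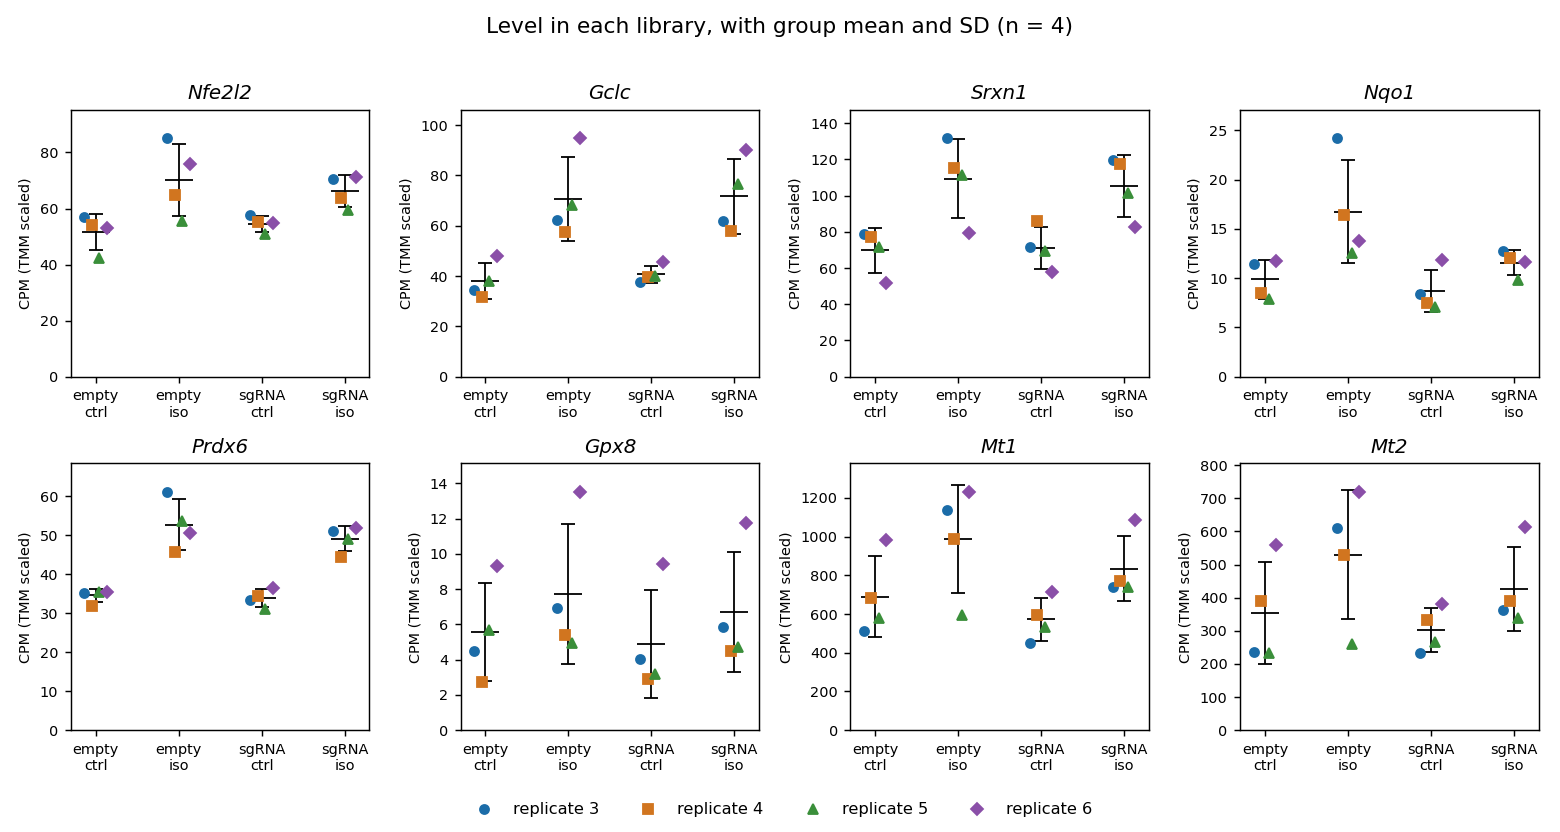
CPM of *Nfe2l2* and the 7 genes called with the block, 1 symbol per library, by group, with the mean and SD (n = 4). Markers give the replicate number. *Prdx6* and *Gclc* separate stimulated from control libraries, whereas *Mt1*, *Mt2* and *Gpx8* overlap, with replicate 6 the highest library of each group.

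In edgeR with all libraries, the metallothioneins were called with the block and not without it. *Mt1* (chr8:94179082-94180327, plus strand) had 513, 681, 580 and 985 CPM in empty control, 1137, 988, 594 and 1231 in empty isoproterenol, 450, 593, 531 and 714 in sgRNA control, and 742, 773, 738 and 1087 in sgRNA isoproterenol libraries. *Mt2* (chr8:94172664-94173568, plus strand) had 237, 389, 233 and 558 CPM in empty control, 609, 530, 261 and 719 in empty isoproterenol, 233, 333, 265 and 382 in sgRNA control, and 363, 389, 338 and 613 in sgRNA isoproterenol libraries. Both were higher in 8 of 8 pairs. The empty vector groups of both genes and the sgRNA groups of *Mt2* overlapped, while the sgRNA groups of *Mt1* did not.

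With the block, *Mt1* rose 1.45-fold (log2 0.54 ± 0.10, edgeR adjusted p = 0.00121) and *Mt2* 1.45-fold (log2 0.54 ± 0.12, adjusted p = 0.00517). Without it their edgeR adjusted p-values were 0.09 and 0.22. DESeq2 without the block called *Mt1* (adjusted p = 0.0246) but not *Mt2* (0.131), and edgeR without the block called *Mt1* in 2 of 20 fits that left out libraries. With the block, *Mt1* lost its call in 4 and *Mt2* in 6 of 20 fits that left out libraries, and without replicate 3 their log2 values were 0.40 and 0.38. An antisense gene shares 73.5% of the exonic bases of *Mt2*, so its value is uncertain.

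*Gpx8* (chr13:113042753-113046410, minus strand), a peroxidase of the endoplasmic reticulum, had 4.51, 2.75, 5.70 and 9.33 CPM in empty control, 6.94, 5.41, 4.95 and 13.5 in empty isoproterenol, 4.05, 2.88, 3.21 and 9.41 in sgRNA control, and 5.85, 4.52, 4.72 and 11.8 in sgRNA isoproterenol libraries. It was higher in 7 of 8 pairs. With the block its log2 fold change of 0.500 ± 0.11 lay just inside the bound (edgeR adjusted p = 0.0047), and the call was lost in 12 of 20 fits that left out libraries. It was also lost when the covariate for ribosomal RNA joined the block, at 0.47 ± 0.12 (adjusted p = 0.0136). *Mgst3* lay just outside on the other side, at -0.4997 ± 0.076 (adjusted p = 0.000234), and was lower in 8 of 8 pairs. With the block it was called lower in 13 of 20 fits that left out libraries.

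By adjusted p alone and with the block, 12 of the 41 genes were higher and 8 lower, against 10.9% and 10.4% of all genes. Besides the 7 called, the higher ones were *Nfe2l2*, *Hmox1*, *Ftl1*, *Gstp1* and *Sod2*. *Hmox1*, the heme oxygenase that frees iron from heme, had a log2 fold change of 0.40 ± 0.071 (edgeR adjusted p = 0.000852), with the higher value under isoproterenol in 8 of 8 pairs. The ferritin light chain *Ftl1* was at 0.29 ± 0.079 (adjusted p = 0.0152), while the heavy chain *Fth1* was at 0.00 ± 0.067. *Sod2*, the manganese dismutase of the mitochondrial matrix, was at 0.22 ± 0.044, and *Gstp1* at 0.24 ± 0.054. None of these 5 passed the bound on the fold change. In edgeR without the block, *Nfe2l2* had an adjusted p of 0.026, and *Hmox1*, *Ftl1*, *Gstp1* and *Sod2* did not pass, at 0.255, 0.343, 0.421 and 0.317. With libraries left out, *Ftl1* lost the p threshold in 2 and *Gstp1* in 1 of 20 fits.

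The 8 lower genes were *Mgst1*, *Mgst2*, *Mgst3*, *Gstz1*, *Cat*, *Sod1*, *Sod3* and *Prdx3*. All 3 microsomal transferases, membrane proteins that handle lipid peroxides and leukotrienes, were lower in 8 of 8 pairs, with log2 fold changes with the block of -0.30 ± 0.059 for *Mgst1*, -0.41 ± 0.063 for *Mgst2* and the value above for *Mgst3*. *Mgst1*, the most abundant transferase, had 1018, 838, 993 and 813 CPM in empty control, 932, 752, 682 and 597 in empty isoproterenol, 926, 789, 844 and 789 in sgRNA control, and 746, 740, 664 and 590 in sgRNA isoproterenol libraries. The sgRNA groups did not overlap. Catalase, *Cat*, which breaks down hydrogen peroxide in peroxisomes, was lower in 8 of 8 pairs by -0.40 ± 0.046 (edgeR adjusted p = 1.42e-05), and without the block it had an adjusted p of 0.127.

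Within the superoxide dismutases the mitochondrial enzyme was higher and the other enzymes lower. *Sod1* had 608, 458, 519 and 301 CPM in empty control, 407, 381, 378 and 260 in empty isoproterenol, 527, 464, 500 and 405 in sgRNA control, and 464, 481, 454 and 275 in sgRNA isoproterenol libraries, and its log2 fold change with the block was -0.30 ± 0.066 (edgeR adjusted p = 0.00442). The extracellular enzyme *Sod3* was at -0.38 ± 0.12 (adjusted p = 0.0395). Mitochondrial *Prdx3* was at -0.17 ± 0.044 (adjusted p = 0.0139) and *Gstz1*, an isomerase of tyrosine breakdown, at -0.24 ± 0.067 (adjusted p = 0.0204). In the main edgeR fit, without the block and with all libraries, none of the 8 genes passed, and their adjusted p-values lay between 0.0799 and 0.61. DESeq2 without the block gave *Mgst3*, *Mgst1* and *Gstz1* adjusted p-values of 0.0216, 0.0253 and 0.0486. By DESeq2 *Mgst2*, *Cat*, *Sod1*, *Sod3* and *Prdx3* did not pass. When the block was joined by the covariate for ribosomal RNA, *Sod3* and *Gstz1* had adjusted p-values of 0.0607 and 0.0615. With libraries left out of the blocked fit, *Sod3* lost the p threshold in 15, *Gstz1* in 3 and *Prdx3* in 2 of 20 fits, with adjusted p-values up to 0.204, 0.119 and 0.0742. The other 5 genes kept it in all 20. The covariate without the block moved *Sod3* to -0.16 on the log2 scale, and *Cat* to -0.51 (edgeR adjusted p = 0.00684).

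The remaining 21 genes had log2 fold changes with the block between -0.24 and 0.68. Of these, 14 were higher and 7 lower, and none had an edgeR adjusted p under 0.05. *Gpx4* had 1029, 892, 902 and 632 CPM in empty control, 936, 889, 703 and 603 in empty isoproterenol, 905, 898, 746 and 773 in sgRNA control, and 862, 968, 684 and 668 in sgRNA isoproterenol libraries, with overlapping groups and a log2 fold change without the block of -0.10 ± 0.12 (adjusted p = 0.744). Without empty control replicate 6 that fold change was -0.16, and without empty isoproterenol replicate 6 it was -0.053. *Prdx1*, the highest peroxiredoxin, had 509, 473, 551 and 466 CPM in empty control, 659, 509, 497 and 427 in empty isoproterenol, 457, 482, 446 and 454 in sgRNA control, and 508, 491, 481 and 436 in sgRNA isoproterenol libraries, and the groups overlapped.

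The isoproterenol effect was also fitted within each plasmid. Without the block, *Gclc* and *Prdx6* were called in empty vector cells, with log2 fold changes of 0.90 ± 0.17 and 0.61 ± 0.095, against 0.456% of all genes called higher and 0.373% lower. In sgRNA cells the called genes were again *Gclc* and *Prdx6*, with 0.82 ± 0.17 and 0.54 ± 0.094, against 0.403% higher and 0.297% lower. With the block, 7 genes were called in empty vector cells, of which *Gclc*, *Mt1*, *Mt2*, *Nqo1*, *Prdx6* and *Srxn1* were higher (2.32% of all genes) and *Mgst3* lower (2.15%). In sgRNA cells *Gclc*, *Mt1*, *Prdx6* and *Srxn1* were higher with the block (2.08% of all genes) and none lower (1.83%). The interaction, which tests whether the effect differs between the plasmids, called 0 of 41 genes and 0% of all 13150 in edgeR with and without the block, and 0 of 41 by DESeq2. No member had an unadjusted p under 0.05 for it, and the lowest was 0.276 without and 0.135 with the block. Of all genes, 0.213% were higher and 0.183% lower at that p without the block, and 0.776% and 0.738% with it. For *Nqo1* the interaction was -0.34 ± 0.30 on the log2 scale and for *Nfe2l2* -0.17 ± 0.17, so that differences of this size were not detectable.

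Other gene groups moved with isoproterenol in the same libraries, and the counts of calls in these marker and pathway lists stand against 1.33% of all genes called higher and 1.32% lower without the block, and 3.09% and 2.61% with it. Of 8 tested adipocyte markers, 8 were lower and 4 called, and *Adipoq* fell by 1.06 on the log2 scale (edgeR adjusted p = 0.00222). The summed level of the 9 adipocyte markers was 13988 to 23740 CPM in empty control, 10220 to 18142 in empty isoproterenol, 17330 to 22107 in sgRNA control and 10698 to 20156 in sgRNA isoproterenol libraries. Of 10 macrophage and leukocyte markers 2 were tested, *Cd14* and *Cd68*, and both rose, while the list summed to 9.04 to 17.6 CPM in control and 17.7 to 28.1 in stimulated libraries, with *Adgre1* and *Ptprc* near 0. In bulk RNA fewer cells of a type and less RNA per cell cannot be told apart. The part of these marker changes in the antioxidant genes was not tested.

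The other marker lists were smaller. Of 8 tested brown adipocyte markers 6 were higher and 2 called, among them *Ucp1* with a log2 fold change of 4.03 ± 0.37. Of 4 tested preadipocyte and fibroblast markers, 1 endothelial and 3 smooth muscle markers, none was called without the block, and with it 1 fibroblast marker was higher and 3 smooth muscle markers lower. *Pdgfra* stood at 1.40 to 4.30 CPM.

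Genes next to NRF2 in the pathway were counted in the same fit. Of 15 tested partners and regulators of NRF2, which include the small MAF proteins, BACH1 and CUL3, 0 were called without or with the block (median log2 fold change 0.00). Of 29 tested other NRF2 targets, 15 were higher and 14 lower, and 2 were called, both higher, *Ugdh*, which makes UDP-glucuronate, with 1.02 ± 0.12 and *Esd*, an esterase of formaldehyde detoxification, with 0.91 ± 0.20. With the block *Aldh1a1*, a retinal dehydrogenase, was also called lower. The median of the list was 0.02.

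Of 22 tested genes of glutathione synthesis and turnover, 13 were lower, and glutaredoxin *Glrx* was called lower with -0.54 ± 0.080 (edgeR adjusted p = 0.000855). The block added the glutamine carrier *Slc1a5* as lower and the prostaglandin E synthase *Ptges* as higher. Of 24 tested genes of the thioredoxin system and other redox enzymes none was called (median -0.11).

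Of 24 tested genes of metal and iron handling, *Aco1*, the cytosolic aconitase that also binds iron response elements, fell by 0.57 on the log2 scale (edgeR adjusted p = 0.00834). With the block the ferroxidase ceruloplasmin *Cp* and the metalloreductase *Steap4* were lower too, with -0.99 ± 0.16 and -0.70 ± 0.11, and the zinc and iron carrier *Slc39a14* was higher with 0.59 ± 0.10. Of 10 tested oxidant-producing enzymes, xanthine dehydrogenase *Xdh* rose with 0.93 ± 0.13 (adjusted p = 0.000366) and *Pcyox1*, a prenylcysteine oxidase, fell by 0.51 (adjusted p = 0.00857).

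The plasmid gave smaller differences. In the sgRNA effect averaged over treatments, 0 of 41 genes were called without the block, against 0% of all 13150 genes in either direction, and 3 (7.32%) had an unadjusted p under 0.05, all lower, against 2.24% of all genes lower and 1.08% higher. With the block 0 were called, against 0.0456% higher and 0.221% lower, and 8 (19.5%) had an unadjusted p under 0.05, all lower, against 7.07% lower and 4.38% higher. DESeq2 also called 0. The members' median log2 fold change was -0.09 against -0.01 for all genes, and 30 of 41 were lower.

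By adjusted p alone and with the block, 2 members, *Fth1* and *Sod2*, were lower and 0 higher, against 0.449% and 0.137% of all genes. *Fth1* (chr19:9980598-9985098, plus strand), the ferritin chain that oxidises iron, had 2088, 2212, 2478 and 2018 CPM in empty control, 2544, 2404, 2062 and 1994 in empty isoproterenol, 1642, 1761, 1536 and 1877 in sgRNA control, and 1664, 1727, 1630 and 1680 in sgRNA isoproterenol libraries. Each sgRNA library was below each empty vector library. Its log2 fold change with the block was -0.40 ± 0.068 (edgeR adjusted p = 0.0112), and without the block the same -0.40 ± 0.082 had an adjusted p of 0.266. DESeq2, also without the block, gave -0.39 with an adjusted p of 2.42e-05.

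*Sod2* (chr17:13006846-13040063, plus strand) had 319, 296, 292 and 202 CPM in empty control, 361, 357, 335 and 265 in empty isoproterenol, 249, 238, 259 and 196 in sgRNA control, and 301, 277, 285 and 210 in sgRNA isoproterenol libraries. It was lower with the sgRNA plasmid in 8 of 8 pairs, but the plasmid groups overlapped. Within each treatment they did not overlap when replicate 6, the lowest of each group, was set aside. Its log2 fold change with the block was -0.26 ± 0.044 (edgeR adjusted p = 0.011). Without the block, the edgeR adjusted p of *Sod2* was 0.898 or more in each of 20 fits that left out libraries. Within each replicate number the empty isoproterenol library was the highest and the sgRNA control library the lowest.

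The ribosomal RNA share, which also moved with isoproterenol in empty vector cells, moved with the plasmid, with means of 29.0% in empty control, 36.8% in empty isoproterenol, 19.1% in sgRNA control and 21.1% in sgRNA isoproterenol libraries. With this covariate beside the block, *Fth1* was at -0.28 ± 0.095 (edgeR adjusted p = 0.819) and *Sod2* at -0.31 ± 0.065 (adjusted p = 0.155), so neither passed. With the block alone, *Fth1* had adjusted p-values up to 0.195 when replicate 3, 4 or 5 was left out. *Sod2* reached 0.242 when any 1 replicate number was left out, and 0.051 without sgRNA isoproterenol replicate 4. The covariate without the block gave *Fth1* -0.38 (adjusted p = 0.547) and *Sod2* -0.31 (0.753), and leaving out the ribosomal RNA gene gave -0.39 and -0.26.

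**Figure D4:**
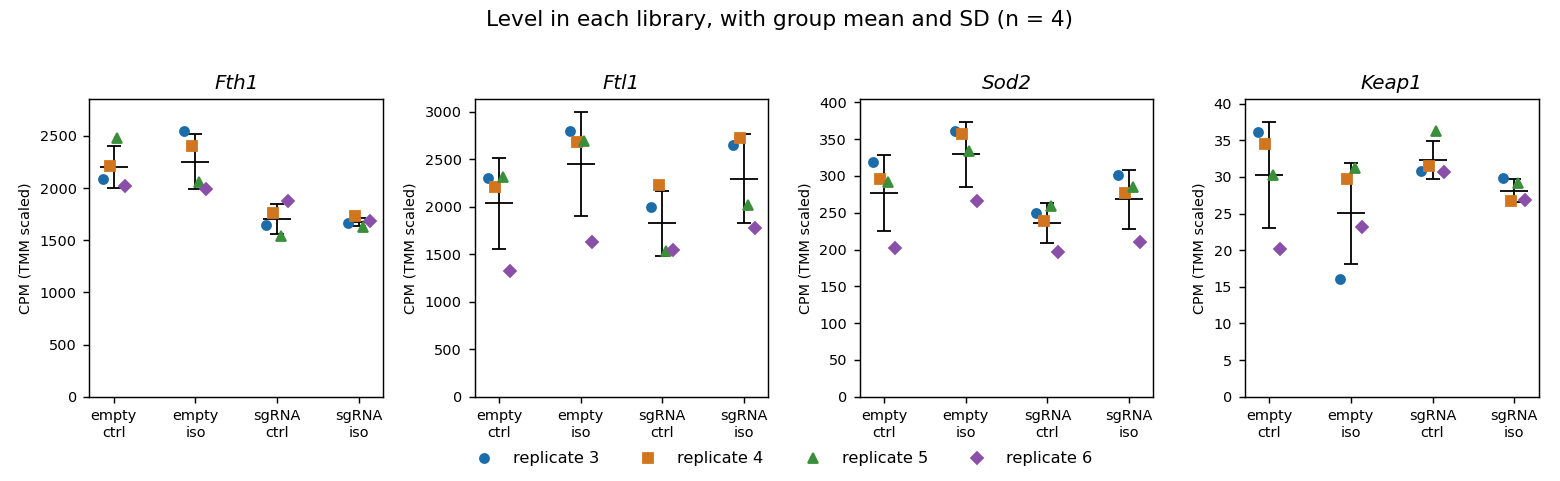
CPM of *Fth1*, *Ftl1*, *Sod2* and *Keap1*, 1 symbol per library, by group, with the mean and SD (n = 4), and markers for the replicate number. The 8 sgRNA libraries of *Fth1* lie at 1536 to 1877 CPM, below the 8 empty vector libraries at 1994 to 2544, whereas *Ftl1* overlaps.

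The light chain *Ftl1* (chr7:45457944-45459884, minus strand) had 2298, 2205, 2315 and 1319 CPM in empty control, 2793, 2683, 2691 and 1626 in empty isoproterenol, 2000, 2223, 1535 and 1542 in sgRNA control, and 2650, 2726, 2014 and 1777 in sgRNA isoproterenol libraries. Its plasmid groups overlapped, and it was lower with the sgRNA plasmid in 4 of 8 pairs. Other genes share 34.6% of its exonic bases. *Gstm2*, *Gstp1* and *Prdx2* were lower in 8 of 8 pairs, with log2 fold changes with the block of -0.32 ± 0.087, -0.19 ± 0.054 and -0.15 ± 0.039 and edgeR adjusted p-values of 0.144, 0.161 and 0.133, and *Mgst1* was the other gene lower in all 8. *Nqo1* was at -0.34 ± 0.11 (adjusted p = 0.239), and *Nfe2l2* and *Keap1* were at 0.01 ± 0.052 and 0.13 ± 0.11. The covariate for ribosomal RNA without the block moved *Gstm2*, *Gstp1* and *Prdx2* to -0.63, -0.43 and -0.30 on the log2 scale (edgeR adjusted p = 0.753 for each). Joined to the block it moved *Gstm2* to -0.48 (adjusted p = 0.393) and *Keap1* to 0.03. Without empty isoproterenol replicate 3, *Keap1* was at 0.04 with the block.

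**Figure D5:**
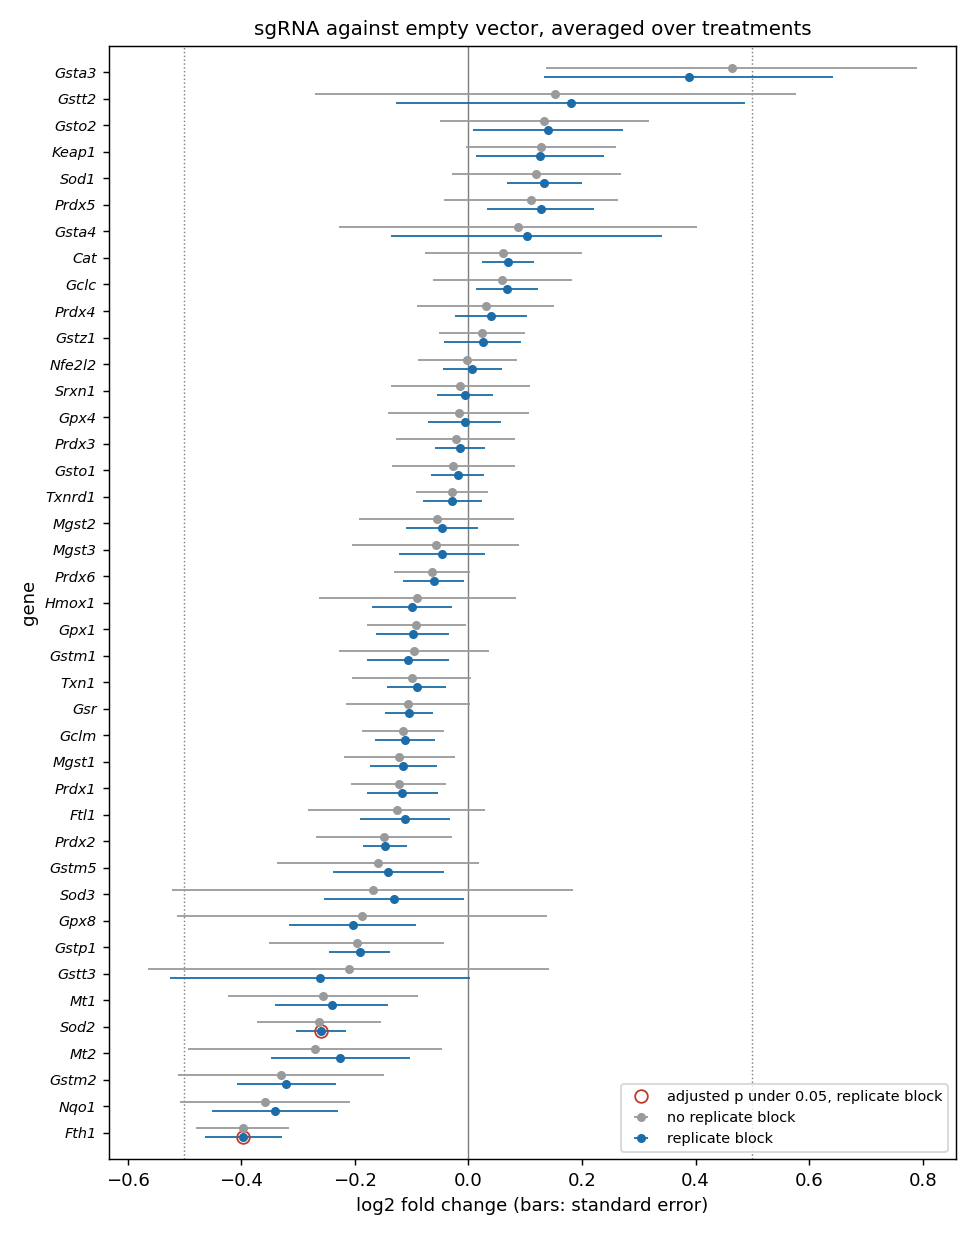
Log2 fold change of the 41 genes for the sgRNA plasmid against the empty vector, averaged over treatments, with its standard error, drawn as in the plot of isoproterenol effects. With the block, 29 of 41 genes lie below 0, and *Fth1* and *Sod2* carry an adjusted p under 0.05.

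Among the pathway and marker lists, the plasmid called 0 genes without the block. With it, *Cp* and *Steap4* of the metal and iron list were lower, with -1.07 ± 0.16 (edgeR adjusted p = 0.00417) and -0.53 ± 0.11 (adjusted p = 0.0354), and the other 5 pathway lists held no call. Of the marker lists, *Cidea* was higher and *Ly6a* lower. Without the block, the 8 tested brown adipocyte markers were all on the higher side, with a median log2 fold change of 0.21, and 6 of 8 adipocyte markers were, with a median of 0.08. Of 4 preadipocyte and fibroblast markers 3 were on the lower side, with a median of -0.25, as were both tested macrophage and leukocyte markers, with a median of -0.19, and 2 of 3 smooth muscle markers, with a median of -0.09. The endothelial marker was at -0.01. The part of these markers in the plasmid effect on the antioxidant genes was not tested.

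Replicate numbers accounted for much of the spread of these genes within groups. The median share of the within-group variance of log2 CPM that went with the number was 0.782 in the 41 genes and 0.615 in all genes tested. It was highest for *Prdx2*, at 0.974, and lowest for *Fth1*, at 0.111. Averaged over groups, replicate 6 deviated from the group means of *Sod2*, *Srxn1*, *Sod1*, *Hmox1* and *Ftl1* by -0.46 to -0.33 on the log2 scale, and from those of *Gclc*, *Mt1*, *Mt2* and *Gpx8* by 0.33 to 0.94. The labels do not say what the numbers share.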

How the data were processed

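Polyadenylated RNA of 16 libraries (4 groups of 4, by the sample titles) was sequenced in paired ends. Per the labels and methods, reads were quality-filtered (cutadapt) and salmon assigned them to GENCODE M22 transcripts (GRCm38), from which the authors deposited estimated counts per gene as whole numbers, not normalized. Versions and the use of read strand are not given in the sources used here, so antisense and overlapping genes are uncertain. Coordinates and transcript lengths (APPRIS principal transcript) are from GENCODE M21.

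Counts were tested in R 4.3.3 with edgeR 4.0.16: filterByExpr (minimum count 10, minimum total 15) left 13150 of 54347 genes, libraries were scaled by TMM, and 4 group means were fitted by glmQLFit and compared by two-sided glmQLFTest. P-values were adjusted over these genes (Benjamini-Hochberg). Adjusted p-values in the text are from this fit unless said otherwise. A gene was called at an adjusted p under 0.05 with a log2 fold change beyond 0.5 in size. The methods name DESeq2 but no design formula, so the replicate number was not in the model, and a block on it was an alternative. Every pair of libraries with the same number deviated together (correlations 0.224 to 0.613, against -0.512 to 0.516 between different numbers and groups, ranges that overlap), and since each was over 0.1 the numbers were taken to pair the libraries. The block lowered the median biological coefficient of variation from 18.0% to 9.96%. CPM are values of the cpm function of edgeR over TMM-scaled library sizes. Totals were 9053521 to 16546187 counts, and intervals or limits at 0 cover counting error only.

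Alternatives were DESeq2 1.42.0, RLE size factors, no filter, the ribosomal RNA gene left out or its share as a covariate, no bound on the fold change, and each library or replicate number left out. The block with covariate, the block without the bound, and the block with libraries left out were added after seeing the data. The scripts were tested on simulated data. The members, pathway and marker lists were chosen with earlier results of these data known. Named by rule were members called in either fit, *Nfe2l2*, *Keap1*, the most abundant member of each family, and up to 4 called genes per list and direction. The per-library values of *Fth1* and *Sod2* stand outside this rule. For the sgRNA effect both passed by adjusted p alone with the block, a setting added after seeing the data.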

Additional observations from a re-analysis of the deposited data

Results flagged for a closer look

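In groups of 4 libraries, a library was singled out where its gap to the nearest of the others was a larger part of the group's range than Dixon's 95% critical value allows. Of 116 groups (29 genes in 4 groups), 7 held such a library, and chance gives about 1 in 20. *Ftl1* was low in replicate 6 of empty control, at 1319 CPM against 2205 to 2315, and in replicate 6 of empty isoproterenol, at 1626 CPM against 2683 to 2793. *Sod1* was low in replicate 6 of sgRNA isoproterenol, at 275 CPM, and *Gclm* in replicate 6 of sgRNA control, at 36.3 CPM. *Mt1* was high in replicate 6 of sgRNA isoproterenol, at 1087 CPM against 738 to 773. *Prdx6* was low in replicate 4 of empty control, at 31.9 CPM against 35.1 to 35.6, and *Keap1* was high in replicate 5 of sgRNA control, at 36.2 CPM against 30.7 to 31.5. Of these 7 values, 5 are from replicate 6.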

How the results depend on the processing

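The count of genes called under isoproterenol was 4, and 7 with the replicate block, 8 with the block and the ribosomal RNA share as a covariate (*Gpx8* left out, *Gsta4* and *Mgst3* added), and 2 to 6 when a library or replicate number was left out (5 to 8 with the block). In empty vector cells it was 2, and 7 with the replicate block, 4 by DESeq2, 6 with block and covariate, and 0 to 3 with libraries left out (5 to 9 with the block). In sgRNA cells it was 2, and 4 with the replicate block, 1 with no filter, 4 with block and covariate, and 0 to 2 with libraries left out (1 to 4 with the block, where 1 came without sgRNA control replicate 3). Without the bound on the fold change, the block gave 20 genes averaged over plasmids, 14 in empty vector and 11 in sgRNA cells, and 2 for the sgRNA effect averaged over treatments. Counts for the sgRNA effects and the interaction stayed at 0 in every other alternative run. Of all 13150 genes tested, the block without the bound called 2799 averaged over plasmids, 1259 in empty vector and 1105 in sgRNA cells. For the sgRNA effect it called 77. With the bound, the isoproterenol counts in that order were 349, 109 and 92 in the main fit and 749, 588 and 513 with the block. Block and covariate gave 730, 567 and 538. DESeq2 called 223 in empty vector cells, and no filter, with more genes tested, 125 in sgRNA cells. The cause of the moves in the member counts was not tested.

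Estimates near 0 changed sign. *Fth1* under isoproterenol, 0.00 in the text, was -0.021 with no filter, -0.00068 with the covariate, -0.037 with block and covariate, and -0.046 to 0.038 with libraries left out (-0.048 to 0.051 with the block). *Nfe2l2* for the plasmid, -0.0020, was 0.0067 with the replicate block, 0.0045 with RLE, 0.0036 by DESeq2, 0.028 with no filter, 0.0043 without the ribosomal RNA gene, -0.016 with block and covariate, and -0.046 to 0.051 with libraries left out (-0.042 to 0.051 with the block). Among the 26 isoproterenol and 11 plasmid effects recomputed, no other direction reversed. *Mgst3* was called lower with no filter (-0.51, edgeR adjusted p = 0.0408) and with block and covariate (-0.55, adjusted p = 8.29e-05). *Cat* was called lower with the covariate alone (-0.51, edgeR adjusted p = 0.00684). With libraries left out, *Mgst3* was called lower in 2 of 20 fits without the block and in 13 of 20 with it. DESeq2 gave *Sod2* for the plasmid an adjusted p of 1.00. Leaving out the ribosomal RNA gene raised levels by 1.37 to 1.38 times in all groups. Under about 1 CPM, as in *Gsta3*, *Gstt2* and *Gstt3*, depth limited the comparison.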
